A study of Caenorhabditis elegans with 2 samples.

Results

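The gene acs-2 encodes an acyl-CoA synthetase of Caenorhabditis elegans. It lies on the plus strand of chromosome V, at chrV:15567394-15569897 (ce11), with 6 exons and 1 annotated transcript. Peaks of the nuclear hormone receptor NHR-19 were examined in acs-2 and in the 5 kb on either side, 12504 bp in all. The gene was 1 of 22 genes with an acs- symbol and 1 of 19973 protein-coding genes in the Ensembl annotation; acs-23 and acs-25, symbols that RefSeq alone gives, were not counted. It was chosen by the signal of its promoter peak in these same lists, so the values of its peaks are a description and no test was made on them. Of 4530 sites in the list made from both replicates, 3 lay in this window.

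Chromatin immunoprecipitation with sequencing (ChIP-seq) recovers the DNA that a tagged protein sits on, and a peak marks a stretch where that DNA was enriched. The worms were of strain OP791 and carried the integrated transgene wgIs791, in which nhr-19 is fused to TY1, EGFP and 3xFLAG tags on a fosmid. The transgene also holds unc-119(+), a rescue marker, in an unc-119 (tm4063) background. Chromatin came from whole starved L1 larvae, the first larval stage, of 6 h, and the label describes immunoprecipitation against GFP. There were 2 biological replicates of this 1 group and no other condition, and whole larvae give no information on the tissue of a peak. No wild-type or untagged library was analysed here, so enrichment that does not depend on NHR-19 could not be set apart.

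Acyl-CoA synthetases join a fatty acid to coenzyme A, the step that commits it to oxidation or to lipid synthesis. ACS-2 acts in mitochondria, upstream of the carnitine shuttle and β-oxidation, and its transcript is known to rise when worms are starved, through the nuclear receptor NHR-49 and the Mediator subunit MDT-15. NHR-19 belongs to the same large family of nematode nuclear receptors, which are ligand-regulated transcription factors.

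The DNA under the strong upstream summits is shown here because the locus turns on them. Each run is 300 bases of the ce11 plus strand, 5′ to 3′, taken from the RefSeq genome of the same assembly, with the 11 bases centred on the summit in capitals. The first lies 705 bp upstream of acs-2, at chrV:15566539-15566838, and the second lies 3191 bp upstream, at chrV:15564053-15564352.
promoter site: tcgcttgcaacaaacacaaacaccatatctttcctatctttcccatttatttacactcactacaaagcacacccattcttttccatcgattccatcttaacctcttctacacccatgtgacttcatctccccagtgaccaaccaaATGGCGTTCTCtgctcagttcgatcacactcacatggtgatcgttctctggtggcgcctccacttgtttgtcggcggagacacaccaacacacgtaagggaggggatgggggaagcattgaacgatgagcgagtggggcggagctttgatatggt
distal site: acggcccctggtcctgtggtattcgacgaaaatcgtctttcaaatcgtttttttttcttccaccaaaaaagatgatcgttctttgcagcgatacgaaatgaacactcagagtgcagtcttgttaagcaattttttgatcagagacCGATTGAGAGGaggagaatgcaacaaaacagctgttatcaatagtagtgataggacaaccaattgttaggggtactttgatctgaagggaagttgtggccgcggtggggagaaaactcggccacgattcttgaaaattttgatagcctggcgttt

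The strongest site stood between acs-2 and a divergent long non-coding RNA gene. Its peak, chrV:15566445-15566911, was 467 bp wide and intergenic, with a signal of 5166 in the list from both replicates, 2934 in replicate 1 and 2261 in replicate 2. The signal is the height that the authors' peak caller gave each peak, and it ranks peaks within a list but is not comparable between lists. The site ranked 7 of 4530 in the list from both replicates, 7 of 3763 in replicate 1 and 9 of 3729 in replicate 2. A second list of the whole series held the same peak, with the same ends, summit and signal of 5166, at rank 7 of 4452. The 2 series lists share these values, so the second is not a separate measurement. The site thus stood near the top of each of the 4 lists. It had 19.3 times the median signal of all sites, which was 268.

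A second site lay farther upstream, in intergenic sequence beyond the far end of linc-108. Its peak, chrV:15564003-15564437, had a signal of 2300 and ranked 86 of 4530. In replicate 1 it had 1273 and rank 75, and in replicate 2 it had 1036 and rank 97. The promoter site was 2.25 times as high, and the summits were 2486 bp apart. No 5′ end of a gene lay within 1000 bp of this summit, the nearest being that of linc-108 at 2222 bp. Of the 100 strongest sites in the list, 12 had another of the 100 within 5000 bp, in 6 pairs. The acs-2 pair was 1 of these 6.

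The third site lay at the other end of the gene and was much weaker. Its summit fell in the 3′ UTR of acs-2, 2485 bp downstream of the 5′ end, in a peak at chrV:15569844-15569968. Its signal was 362 with rank 1666, and it had 185 in replicate 1 and 179 in replicate 2. The same summit lay 501 bp upstream of lsm-5, a gene for an Sm-like protein of the U6 small nuclear RNP, and so in the promoter window of lsm-5 (1000 bp upstream to 500 bp downstream of a 5′ end). By position it cannot be assigned to acs-2 rather than lsm-5. The distal site was 6.36 times as high.

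**Figure D1:**
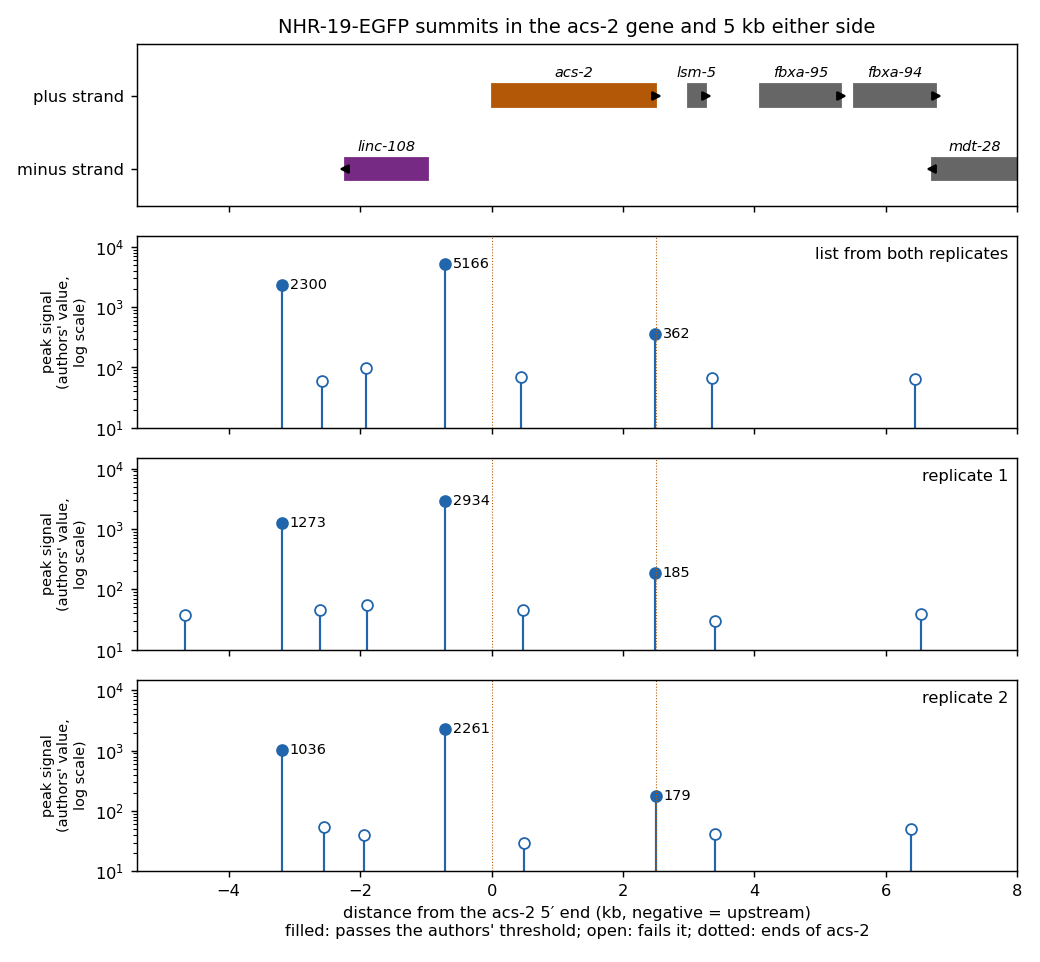
Signal of every summit in acs-2 and 5 kb either side (y axis, log scale) against distance from the acs-2 5′ end in kb (x axis), for the list from both replicates and for each replicate, with genes drawn above by strand. Filled points pass the authors' threshold and open points fail it; the 3 filled points stand within 18 bp of the same places in all 3 panels, with the highest at 5166, 2934 and 2261.

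Apart from these sites the ranked lists, which keep peaks that fail the threshold, held only weak peaks in the window. The threshold corresponds to an irreproducible discovery rate (IDR) of about 0.01, a measure of how poorly a peak's rank repeats. All 3 sites passed it, at an IDR of 1e-05, the smallest value in the list. In the list from both replicates 5 summits of the window failed. The highest, 1909 bp upstream and in an exon of linc-108, had a signal of 99.8 and an IDR of 0.128. The promoter site was 51.8 times as high as this peak. Failing summits 2588 bp upstream (58.7), in the coding sequence 454 bp downstream of the 5′ end (69.8), 3360 bp downstream (67.8) and in fbxa-94 (65.3) made up the rest. In the second series list the linc-108 peak reached an IDR of 0.0346, and the replicates alone gave it 0.405 and 0.528. None of the other genes overlapping the window, fbxa-94, fbxa-95 and mdt-28, had a site in the promoter window. A further summit, 4658 bp upstream in the second series list (46.5) and 4660 bp upstream in replicate 1 (37.1), lay nearest to the upstream edge. The first summit beyond the upstream edge, at 5983 bp, had 45.8. Beyond the downstream edge the first was a passing site in the 5′ UTR of F28F8.9, 8642 bp past the 3′ end of acs-2, with 323.

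Both strong sites fell at nearly the same base in each replicate. The summit of the promoter site was 710 bp upstream in replicate 1 and 703 bp upstream in replicate 2, which is 7 bp apart. That of the distal site was the identical base in all 4 lists. The downstream summits were 18 bp apart. Over 3049 sites matched between the replicates (summits within 200 bp) the median distance was 11 bp, and 5.97% had identical summits.

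The promoter site was relatively higher in replicate 1 than most strong sites were. Its log2 ratio of replicate 1 to replicate 2 signal was 0.38, against a median of 0.20 ± 0.31 (SD) over the 3049 matched sites, of which 74.5% had a lower ratio. The ratios of strong sites varied less. Among the 100 matched sites strongest in replicate 1, a subset chosen after the data were seen, the median was 0.16 ± 0.11 (SD), the range was -0.10 to 0.44, and 1 site exceeded acs-2. The distal site had 0.30, exceeded by 13 of the 100, and the downstream site had 0.05. With 1 value in each of 2 replicates no test was possible, and a ratio between lists also carries the unknown depth of each library.

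**Figure D2:**
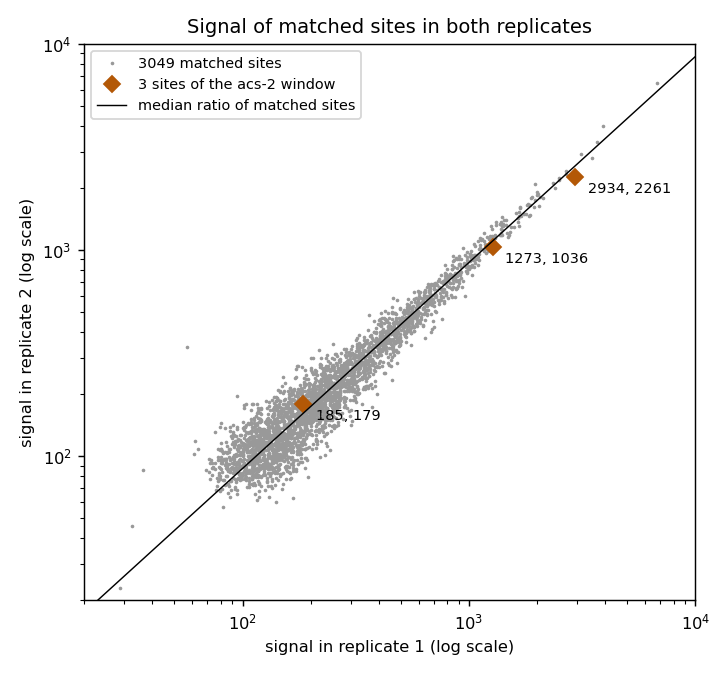
Signal in replicate 1 (x axis) against replicate 2 (y axis), both on log scales, for 3049 matched sites (grey) and the 3 sites of the acs-2 window (diamonds, with their values). The line marks the median ratio; the highest acs-2 site, at 2934 and 2261, lies below it.

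The summit lay farther from acs-2 than from its neighbour. It was 705 bp upstream of the acs-2 5′ end but 264 bp upstream of the 5′ end of linc-108, which is transcribed the other way from chrV:15565170-15566425. There are 968 bp between the 5′ ends of these genes, and the peak lay in the promoter windows of both. Over the 2210 sites in promoter windows of protein-coding genes, the median summit was 180 bp upstream, and 195 (8.82%) lay as far upstream as that of acs-2 or farther. Among the 100 strongest of them the median was 226 bp upstream, and 6 lay as far. With a window of 500 bp upstream, acs-2 would have no promoter site.

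**Figure D3:**
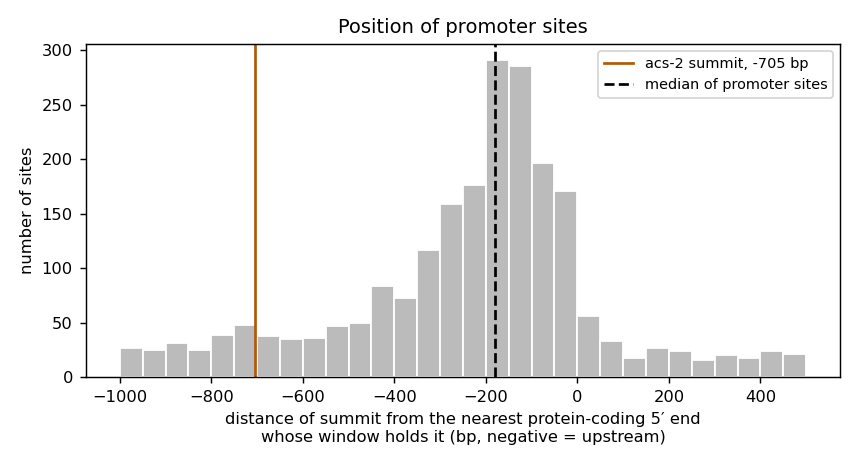
Number of sites (y axis) by distance of the summit from the nearest protein-coding 5′ end whose window holds it (x axis, bp), for 2210 promoter sites. The acs-2 summit at 705 bp upstream stands among the 195 sites that lie as far or farther, and the dashed median is at 180 bp upstream.

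Ranked among promoter sites, the peak stood high by either neighbour. It was the 5th strongest of the 2210 protein-coding promoter sites and the 3rd of 783 sites on chromosome V. The promoter windows of 33 of 194 long intergenic non-coding RNA genes (17.0%) held a site. They held 36 sites, of which that of linc-108 was the strongest, followed by M04F3.7 with 3110 and linc-78 with 2204. A peak list does not show which of these genes, if either, the site acts on.

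The genes with the most similar promoter signal were those next in the ranking. No other acs gene could be among them, since the next, acs-19, had 239 against 5166 for acs-2. Likeness was the sum, over the 4 thresholded lists, of the absolute difference in log2 signal from acs-2, among 2128 genes with a promoter site in all 4; the lists share reads, so they are not 4 independent measurements. The closest was Y17G9B.5, whose site also lies in the promoter window of the ribosomal protein gene rpl-20, with a difference of 0.28 and signals of 5078 in the list from both replicates, 2677 in replicate 1 and 2422 in replicate 2. The taspase-type gene tasp-1, which shares its site with K01G5.10, followed with 0.29 (4968, 2676 and 2335), then the ribosomal protein gene rpl-35 with 0.56, the AAA ATPase gene cdc-48.1 with 0.60 and the splicing helicase gene mog-4 with 0.85. These held ranks 8 to 12, directly below acs-2. Likeness and rank both rest on the signal, so this closeness in rank is no separate result. The summits of these genes lay 56 to 445 bp upstream, all nearer to the gene than that of acs-2.

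None of the searched nuclear receptor half-sites was found at the acs-2 locus. Neither AGGTCA nor AGTTCA nor GGGTCA nor GGTTCA was present, on either strand, in the 300 bases centred on each of the 3 summits. At least 1 of these words occurred in 35.0% of the 4530 site windows and in 36.5% of windows of the same length centred on protein-coding 5′ ends. Of the other words searched on both strands, 4 were absent from the 3 windows too. The repeat GAGAGA occurred in 46.0% of site windows and 19.5% of the 5′ end windows, and the E-box CACGTG in 13.4% and 6.16%. The forkhead word GTAAACA occurred in 5.52% and 4.09%, and the TATA word TATAAA in 23.6% and 35.9%. The promoter site held CCGCCC on the minus strand, 130 bases past the summit near the end of the printed run (12.7% of sites, 7.04% of 5′ end windows). The distal site held TGATAA on the minus strand, 29 bases past the summit (26.0% of sites, 29.2% of 5′ end windows). The downstream window held none of the words. These are matches of letters only, and an absent word says nothing of how NHR-19 reached the DNA.

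The base composition of the promoter site was above that of most sites. Its 300 bases were 48.7% G and C, against a median of 40.3% over all sites, and 86.5% of sites had less. The distal site had 43.0% and the downstream site 34.3%. The longest word common to the promoter and distal windows was TGATCGTTCT, of 10 bases, which occurred in 20 of 4530 site windows. It occurred in 11 of 19973 windows of 300 bases centred on protein-coding 5′ ends. It was found after the sequences were seen. A common word of 10 or more bases was present in 38.6% of the 1548 pairs of neighbouring sites 300 to 5000 bp apart, so its length does not set the acs-2 pair apart.

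In the promoter window used here acs-2 had the highest signal of the acs genes, which is what it was chosen for. With 2000 bp upstream acs-19 would come first, by a site of 7840 that lies 1401 bp upstream of it. Of the 22 acs genes 4 (18.2%) had a site in the promoter window, and of all protein-coding genes 14.1% did. Among genes with a site or a failing peak there, the counts were 4 of 10 acs genes and 42.1% of all such genes. The share over the family was near these backgrounds, which no test set apart. The signal of acs-2 was 21.6 times that of the next gene, acs-19, and 14.6 times the median of 354 over protein-coding genes with a promoter site.

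The other promoter sites of the family were weak. The site 299 bp upstream of acs-19, a gene of the acetyl-CoA synthetase type, had 239 in the list from both replicates, 131 in replicate 1 and 100 in replicate 2. The site of acs-16, 57 bp downstream of the 5′ end in its 5′ UTR, had 171, and its peaks in the replicates, 96.7 and 78.6, failed the threshold. The stronger of 2 neighbouring intron summits of acs-17, 491 bp downstream of the 5′ end, also had 171; replicate 1 had a failing peak of 101 there and replicate 2 had none. In acs-12 the promoter peak failed in the list from both replicates (163, IDR 0.0173) but replicate 1 alone had a site of 105 in the window. Thus 3 members had a promoter site in replicate 1, where 12.3% of all protein-coding genes did, and 2 in replicate 2, where 12.5% did. Those with one in both replicates were acs-2 and acs-19. In the list from both replicates no peak, passing or failing, lay in the promoter window of 12 members. Among them were acs-1, needed to activate branched-chain fatty acids, and acs-20 and acs-22, of the fatty acid transport protein type. Failing peaks alone were found at 6 members in that list. Nearest to the threshold were acs-11 (113, IDR 0.0137) and acs-12. Farther from it were acs-7 (74.0, IDR 0.246), which acts in peroxisomal ascaroside synthesis, and acs-4 (54.9, IDR 0.498). Of the 7 acs genes on chromosome V, 1 (acs-2) had a promoter site in the list from both replicates, and acs-12, on the same chromosome, had one in replicate 1 and in the second series list.

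**Figure D4:**
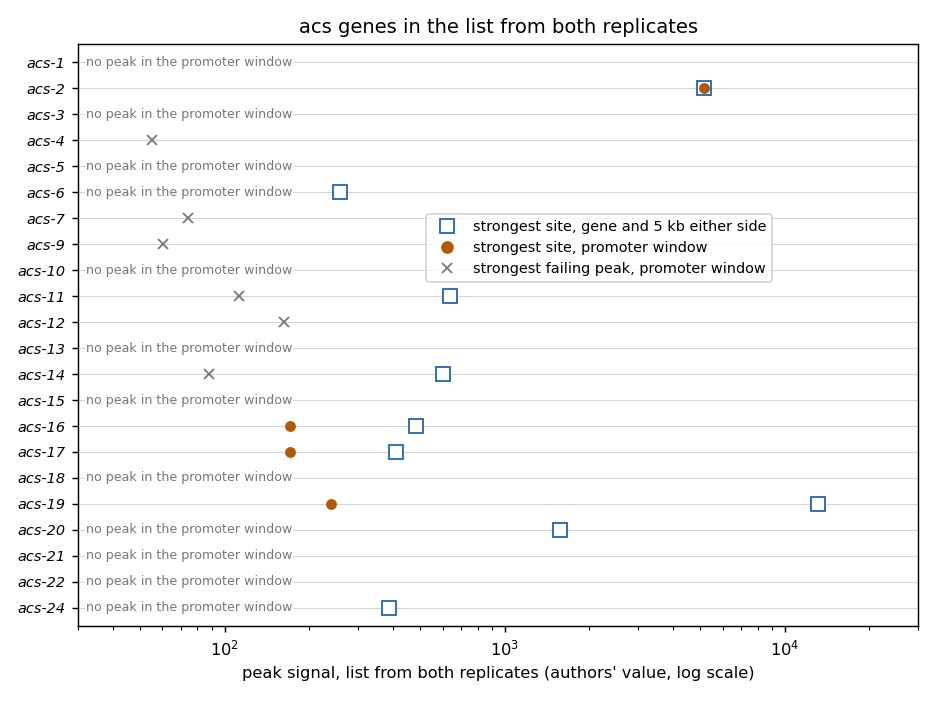
Peak signal in the list from both replicates (x axis, log scale) for each of the 22 acs genes (y axis): strongest site in the gene and 5 kb either side (squares), strongest site in the promoter window (dots) and, where no site passed, strongest failing peak there (crosses). The dot of acs-2 at 5166 stands apart from those of acs-19 (239), acs-16 and acs-17 (both 171), while the square of acs-19 is at 13097.

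The wider window gave a different order. A site lay in the gene or within 5 kb of it for 9 of 22 acs genes (40.9%), and for 40.6% of all protein-coding genes. At least 3 sites lay there for 4 of the 22, acs-2, acs-11, acs-17 and acs-19, and for 5.29% of protein-coding genes. The count of 3 for acs-17 includes 2 overlapping peaks, of 171 and 72.1, whose summits lay just far enough apart not to be merged. Neither of these peaks passed the threshold in replicate 1 or in replicate 2. By the strongest site in this window acs-19 came first. The strongest site of the whole list lay 473 bp past its 3′ end, in the promoter window of rpl-3, a ribosomal protein gene. That site had 13097 in the list from both replicates, 6728 in replicate 1 and 6433 in replicate 2. The second strongest lay 1401 bp upstream of acs-19, in the window of brc-1, the BRCA1 orthologue, with 7840, 3895 and 3989. Neither lay in the promoter window of acs-19.

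Around the 21 other acs genes there were 18 sites, of which 4 lay in the promoter window of the acs gene itself. After the strong pair beside acs-19, the highest lay 784 bp past the 3′ end of acs-20, with 1570 (875 in replicate 1, 708 in replicate 2), in the windows of dpm-3 and the ribosomal protein gene rps-23. Next came signals of 639 upstream of acs-11, in the window of eas-1, and 603 upstream of acs-14, in the coding sequence of swt-5, a gene of the SWEET sugar transporter family. The remaining sites had 484 or less.

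**Figure D5:**
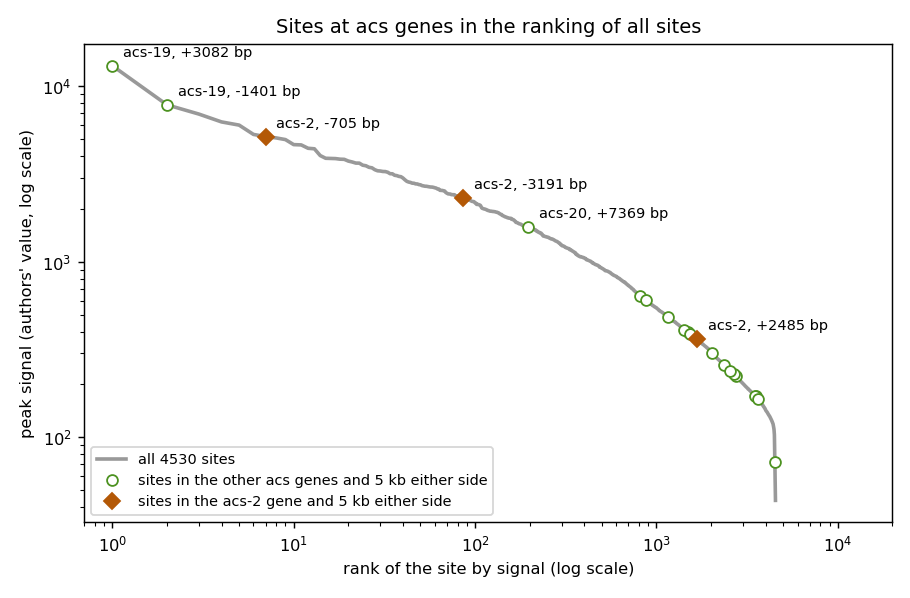
Signal (y axis, log scale) against rank (x axis, log scale) for all 4530 sites (grey line), with the sites of acs-2 (diamonds) and of the other acs genes (circles), each in the gene and 5 kb either side. The acs-2 sites have ranks 7, 86 and 1666; the circles at ranks 1 and 2 lie beside acs-19, in the promoter windows of rpl-3 and brc-1.

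Only 6 protein-coding genes had a stronger promoter site than acs-2, which was chosen by this signal. That choice made it nearly certain that genes acting with acs-2 would have a lower signal, as they did. Their promoter sites are therefore only described. In the carnitine shuttle, which carries the acyl groups made by synthetases such as ACS-2 into mitochondria, 1 of 6 genes had one: cpt-2, with 1455 in the list from both replicates, 776 in replicate 1 and 706 in replicate 2, at a site that it shares with C08F8.9. In replicate 2 alone the count was 2, since cpt-1 had a site of 57.7 in its window there. Another site, of 1282 in the list from both replicates, lay 2500 bp upstream of cpt-1, outside the window. In mitochondrial β-oxidation 1 of 12 had a site, ech-1.2, a gene for the trifunctional enzyme, with 290 (144 in replicate 1 and 160 in replicate 2). That count was 2 in replicate 1, with ivd-1 (101), and 3 in replicate 2, with ech-6 (119) and kat-1 (155). The shares in the list from both replicates, 16.7% and 8.33%, stand beside 14.1% of all protein-coding genes, and those in the replicates beside 12.3% and 12.5%.

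Among 7 known regulators of acs-2 or their partners, 3 (42.9%) had a promoter site, beside 14.1% of all protein-coding genes. Among genes with a site or a failing peak there, it was 3 of 5, beside 42.1% of all such genes. The count was 1 in replicate 1 and 2 in replicate 2, where 12.3% and 12.5% of all protein-coding genes had one. So short a list was not tested. The HNF4-type receptor gene nhr-49 had 525 (288 in replicate 1 and 223 in replicate 2) at 335 bp upstream. The receptor gene nhr-80 had 2 sites, the higher of 135, in a window shared with H10E21.1; replicate 2 alone had a site of 78.8 in the window and replicate 1 had none. The TFEB-type gene hlh-30 had 135, and neither replicate alone had a site there. The genes mdt-15 and sbp-1 had failing peaks only (63.3 and 54.1), and the remaining members had no peak in the promoter window.

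Of 7 genes known to depend on nhr-49 together with acs-2, 2 (28.6%) had a promoter site, ech-1.2 and icl-1, beside 14.1% of all protein-coding genes. Among genes with a site or a failing peak there, it was 2 of 3, beside 42.1% of all such genes. The count was 2 in replicate 1 and 3 in replicate 2, where 12.3% and 12.5% of all protein-coding genes had one. The glyoxylate cycle gene icl-1 had 1219 (629 in replicate 1 and 582 in replicate 2) at 97 bp upstream, in a window shared with srh-2, and 6 sites lay in the gene and 5 kb either side, the strongest 3525 bp upstream with 6263 and rank 4. At fat-6, a fatty acid desaturase gene, a failing peak had 202 with an IDR of 0.0174, although replicate 2 alone had a site of 119.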

How the data were processed

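The authors deposited 8 peak lists with ce11 coordinates, as the labels state: a ranked and a thresholded one for each replicate and 2 such pairs for the whole series. The thresholded list named conservative is taken as the comparison of both replicates and the second as pseudoreplicates of pooled reads. This follows the usual naming of such lists, and no label says so. The names of the ranked series lists do not tell them apart. Each thresholded series list was paired with the only ranked one that held all its peaks. The signal of each peak, the offset of its summit and the −log10 of its IDR are used as the authors deposited them; that the latter column is the IDR was read from its values, 0 to 5. The sources used here name no aligner or peak caller, and list a possible control without saying how it was used. They give no read depth, so no counting interval can be given. The 2 ranked lists of the whole series hold 16 columns without a sample name, which were not used. The description of the immunoprecipitation (anti-GFP) was followed, although another label gives nhr-19 as the antibody.

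The ranked list of each replicate held all peaks of its thresholded list. For the series lists this was the rule of pairing and so no check. Within a list, summits within 200 bp of a stronger one were dropped, which left 4530 sites in the list from both replicates. Failing candidates (15858) were ranked peaks outside the thresholded list and over 500 bp from its summits. Genes came from Ensembl release 115 (WBcel235, the ce11 assembly) and bases from the RefSeq genome of that assembly; all peaks end within its chromosomes. The promoter window runs from 1000 bp upstream to 500 bp downstream of a 5′ end. Sites were found, merged and matched with Python 3.11.15, numpy 2.4.6 and pandas 2.3.3, tested on simulated positions and words. No statistical test was made: 1 group of 2 replicates holds no contrast, and acs-2 was chosen for its signal. Locus, gene lists and words were chosen with earlier results of these data known. Named genes are acs-2 and those overlapping its window, the acs genes, the 5 of most similar signal, and up to 6 of highest signal in each of 4 lists. The genes ech-6, kat-1 and ivd-1, the second-ranked site beside acs-19, the linc-78 and M04F3.7 sites, and genes that share or adjoin a site of a named gene were named after their values were seen.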

Additional observations from a re-analysis of the deposited data

How the results depend on the processing

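Of 30 alternatives to the processing, 26 left their result within its limit. The limit was 1.5 times for a count and 1 SD of the replicates for the rank and the distance. For the replicate ratio it was 1 SD over matched sites. Past the limit were the rank without replicate 1 and the distance without replicate 2. The SD came from these same 2 replicate values, so leaving 1 out passes it readily. These 2 outcomes therefore do not measure how stable the rank and the distance are. The count of acs genes was past it without replicate 1 and among the strongest 50% of sites. Some alternatives could hardly move their result, since acs-2 has 1 annotated transcript and the second series list gave its sites the same signals. Without 1 or the other replicate, the rank of the acs-2 promoter site ranged from 7 to 9, its distance from the 5′ end from -710 to -703 bp, and the number of acs genes with a promoter site from 2 to 3. That number was 1, acs-2, among the strongest 50% of sites, 5 in the second series list and with 2000 bp upstream, and 6 at an IDR of 0.05. With 500 bp upstream it was 3, within the limit although acs-2 was the member lost. With 2000 bp upstream the strongest site in an acs promoter window was at acs-19 (7840) and not at acs-2. The 3 sites of the acs-2 window became 2 with 2 kb and 4 with 10 kb either side. The log2 ratio of the replicate ranks, 9 and 7, was 0.36. It is another measure than the signal ratio, so it is no check of it although counted within the limit. The signal ratio was 0.16 after division by the median of matched sites. No paired analysis was possible because the series holds 1 group. Depth is unknown, so how weak a peak could have been detected is unknown, and the absence of a peak at an acs gene does not show that it is unbound.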
